A study of Ovis aries with 9 samples.

Results

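Mitochondrial rRNA fragments were examined among the small RNAs of sheep sperm. They are the reads that the deposited annotation names Mt_rRNA and that carry no tRNA name and no ovine miRNA name. In the 3 libraries together they made up 37183 of 3309646 distinct sequences. The sperm came from the semen of wild-type F1 rams whose mothers had been overfed (OVER), fed a restricted ration (RES) or fed a standard ration (CON). The sperm of all 3 groups had passed through an SDS and Triton buffer that breaks open somatic cells, and small RNA of 15 to 42 nt was read. The labels list 3 samples a group, but the 3 deposited tables of a group were identical in sequences and reads, so each group was counted as 1 library. No test between groups was therefore possible, and all intervals below are exact 95% intervals that cover counting error only. The labels do not give the breed or age of the rams, or whether semen was pooled.

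Mammalian mitochondrial DNA carries a gene for each of its 2 ribosomal RNAs. The 12S rRNA is the RNA of the small subunit, which reads the messenger RNA, and the 16S rRNA is that of the large subunit, which joins the amino acids. Both are cut out of a long transcript, in which tRNAs lie in front of and between them and mark the cutting sites. A ram sperm carries its mitochondria in the midpiece, wrapped around the start of the tail, and has little cytoplasm.

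Overlapping fragments were joined without a reference into 1 stretch of 952 nt taken as 12S rRNA and 5 stretches taken as 16S rRNA. The latter were named 16S-1 to 16S-5 in their presumed order from the 5′ end. That order was not checked against a reference sequence. Mitochondrial reads that the annotation names mt_DNA were added in the joining to bridge gaps. The 16S stretches held 1540 nt together. A RefSeq gene table of a sheep assembly gives 958 nt for the 12S gene and 1574 nt for the 16S gene. Positions below count from 1 at the 5′ end of a stretch, and a fragment is named by its stretch with its first and last base. The sequences with the most reads in the 3 libraries came from a few places, shown here 5′ to 3′ with T for U. Capitals mark the bases shared by the leading sequences of the same place, and all-lower-case sequences stood alone there.
12S 507-531: ccGAAACTCAAAGGACTTGGCGGTg
12S 509-532: GAAACTCAAAGGACTTGGCGGTgc
12S 215-242: ataTTGACCAGGGTTGGTAAATCTCGTG
12S 218-242: TTGACCAGGGTTGGTAAATCTCGTG
12S 777-795: gaggatttagcagtaaact
16S-1 1-29: ACTATACCTAGCCCAAAATCTCCCACTCT
16S-1 1-30: ACTATACCTAGCCCAAAATCTCCCACTCTc
16S-4 163-190: actggactattctattactaaatagaag
16S-5 829-848: aggacaagagaaataaggcc

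The RES library held more than 2 times as much mitochondrial rRNA as the other libraries. Mitochondrial rRNA amounted to 16545 reads per 1000000 reads of the library (RPM) in OVER, 43203 RPM in RES and 18526 RPM in CON. That was 137124 of 8287937 reads in OVER, 568552 of 13160116 in RES and 184963 of 9983895 in CON. On the log2 scale RES stood 1.22 above CON (1.21 to 1.23), which is 2.33-fold. OVER stood 0.16 below CON (log2 ratio -0.16, -0.17 to -0.15) and 2.61-fold below RES. In bulk RNA, fewer cells of a kind and less RNA per cell cannot be told apart.

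The other ribosomal and mitochondrial RNAs differed less between RES and CON. The log2 ratio of 28S rRNA reads, from the large cytoplasmic subunit, was 0.28 for OVER over CON and 0.47 for RES over CON. That of 18S rRNA reads, from the small cytoplasmic subunit, was 0.01 for OVER over CON and -0.09 for RES over CON. Mitochondrial tRNA reads, from the same DNA as the 12S and 16S rRNAs, gave 0.28 for OVER over CON and 0.46 for RES over CON. For each read of 28S or 18S rRNA there were 0.291 mitochondrial rRNA reads in OVER, 0.713 in RES and 0.368 in CON. For each mitochondrial tRNA read there were 1.98 in OVER, 4.55 in RES and 2.69 in CON. The annotated share of reads also differed, at 62.9% in OVER, 67.6% in RES and 57.6% in CON. As a share of annotated reads, mitochondrial rRNA took 2.63% in OVER, 6.39% in RES and 3.22% in CON.

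Markers of other cells could be read only in part from the annotation. Names of the epithelial miR-200 family carried 897 RPM in OVER, 115 RPM in RES and 413 RPM in CON. No ovine name of the germ cell miRNAs miR-34c and miR-449, of the white blood cell miRNA miR-223 or of the red blood cell miRNA miR-451 occurred there, so these names say nothing of their levels. What part other cells have in the mitochondrial rRNA reads was not tested.

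The fragments differed in length between the libraries. Their mean length was 22.3 nt in OVER, 25.8 nt in RES and 27.5 nt in CON, and the commonest length was 19 nt in OVER, 25 nt in RES and 29 nt in CON. Reads of 15 to 20 nt made up 40.5% of mitochondrial rRNA reads in OVER (40.2 to 40.7), 17.5% in RES (17.4 to 17.6) and 9.33% in CON (9.20 to 9.47). Reads of 31 to 36 nt made up 4.63% in OVER, 13.4% in RES and 19.5% in CON. The same order of lengths held for all reads of the libraries, with means of 23.3 nt in OVER, 27.2 nt in RES and 28.5 nt in CON. It also held for 28S rRNA reads, with means of 20.6 nt in OVER, 25.1 nt in RES and 26.5 nt in CON.

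**Figure D1:**
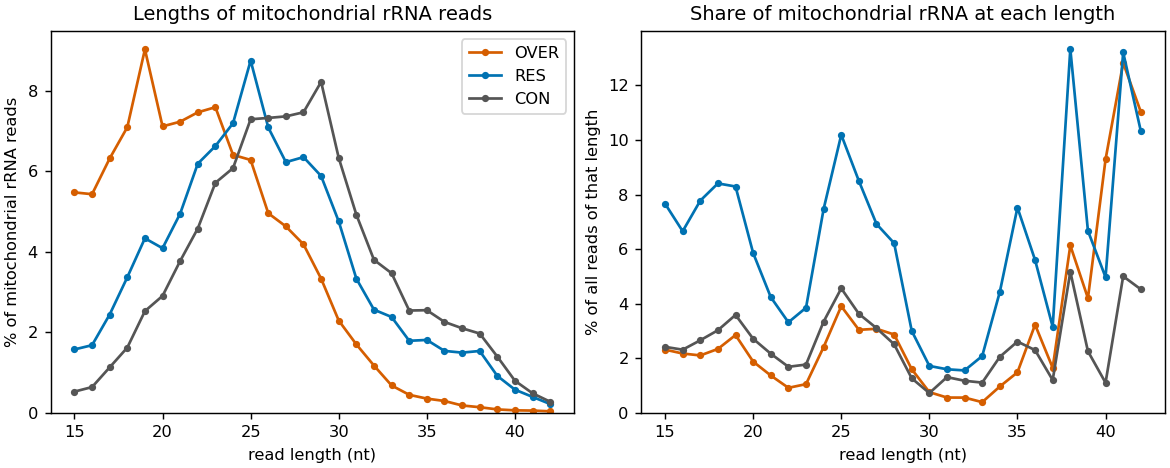
Read lengths in nt against the percentage of mitochondrial rRNA reads that have that length (left) and against the percentage of all reads of that length that are mitochondrial rRNA (right), for the OVER, RES and CON libraries. The OVER curve on the left peaks at 19 nt, the RES curve at 25 nt and the CON curve at 29 nt, while on the right RES lies above CON at each length drawn.

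Set against CON by length, OVER was higher among short fragments and lower among long ones, and RES was higher at every length. At 15 to 20 nt there were 6694 RPM in OVER, 7551 RPM in RES and 1729 RPM in CON, so OVER was 3.87-fold and RES 4.37-fold above CON. At 25 to 30 nt the levels were 4247 RPM in OVER, 16869 RPM in RES and 8150 RPM in CON. OVER was 1.92-fold below CON there and RES 2.07-fold above it. At 37 to 42 nt the levels were 90.5 RPM in OVER, 2214 RPM in RES and 1299 RPM in CON, with OVER 14.4-fold below CON and RES 1.70-fold above it.

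A share of the reads of one length does not move with the length make-up of a library. Of all reads of 15 to 20 nt, mitochondrial rRNA took 2.26% in OVER, 7.31% in RES and 2.89% in CON. Of reads of 25 to 30 nt it took 2.27% in OVER, 4.68% in RES and 1.81% in CON. Of reads of 21 to 24 nt it took 1.23% in OVER, 4.37% in RES and 2.12% in CON, and of reads of 31 to 36 nt 0.602% in OVER, 2.31% in RES and 1.46% in CON. Of the few reads of 37 to 42 nt it took 3.31% in OVER, 5.74% in RES and 1.93% in CON. RES had the highest share in each of the 5 classes. As a class, OVER lay below CON at 15 to 20, 21 to 24 and 31 to 36 nt, and above it at 25 to 30 and 37 to 42 nt. Each class spans several lengths, so its share still depends on the mix of lengths inside it. OVER was below CON at 25 nt (3.91% against 4.56%), 26 nt and 27 nt, and above it at 28 nt, 29 nt (1.60% against 1.26%) and 30 nt. At 36 nt OVER was also above CON (3.23% against 2.30%). With every library given the length make-up of CON, mitochondrial rRNA came to 17130 RPM in OVER, 41673 RPM in RES and 18526 RPM in CON.

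**Figure D2:**
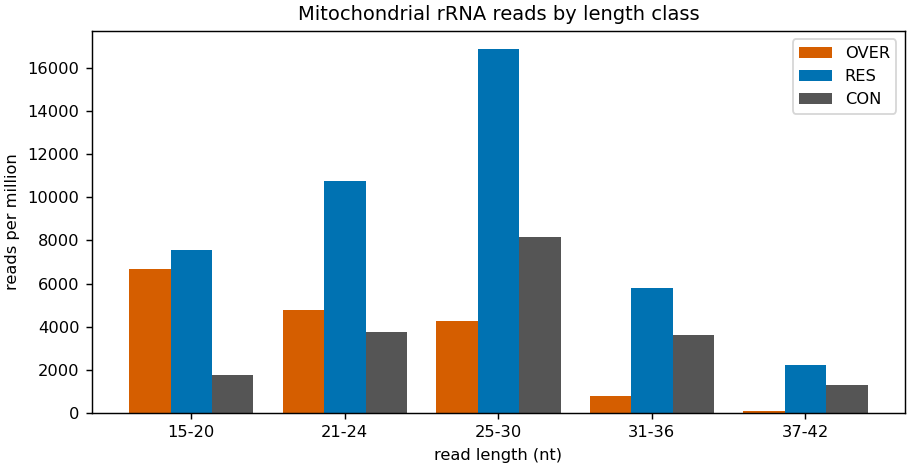
Mitochondrial rRNA in RPM in 5 length classes in nt, with a bar each for the OVER, RES and CON libraries. The OVER bar is 6694 RPM at 15 to 20 nt and 90.5 RPM at 37 to 42 nt, and the RES bar is the tallest in each class.

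Single sequences were compared where they had at least 100 reads in the 2 libraries together. Between RES and CON, 716 of 1171 mitochondrial rRNA sequences (61.1%) were at least 2-fold higher in RES, against 26.8% of all 11737 sequences compared. At least 2-fold lower in RES were 31 (2.65%), against 13.9% of all sequences. The median log2 ratio was 1.32 for mitochondrial rRNA and 0.20 for all sequences. Between OVER and CON, 130 of 538 sequences (24.2%) were at least 2-fold higher in OVER, against 34.5% of all 9319 sequences, and 181 (33.6%) were at least 2-fold lower, against 34.7%. Both shares lay near or under those of all sequences, and the median was -0.21, against -0.08 for all. Between OVER and RES, 44 of 1104 (3.99%) were at least 2-fold higher in OVER, against 25.4% of all 11256 sequences, and 715 (64.8%) were at least 2-fold lower, against 37.8%. The comparisons share libraries, so their counts are not independent. The read minimum is met by the 2 libraries together, so a sequence could pass it mostly through RES. The counts also carry the class total with them. Scaled to the mitochondrial rRNA total, 278 of 1171 were at least 2-fold higher and 218 lower in RES than in CON. On that scale 246 of 1104 were higher and 408 lower in OVER than in RES.

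Length split these counts in OVER. Of the mitochondrial rRNA sequences of 15 to 20 nt, 97 of 118 (82.2%) lay at least 2-fold above CON in OVER, and so did 80.5% of all sequences of that length. Of those of 31 to 36 nt, 52 of 61 (85.2%) were at least 2-fold lower in OVER, and so were 69.8% of all sequences of that length. In RES the excess over CON was present at each length. At 15 to 20 nt, 174 of 191 sequences (91.1%) were at least 2-fold higher in RES, against 56.3% of all sequences of that length. At 25 to 30 nt it was 224 of 436 (51.4%), against 16.4%, and at 31 to 36 nt 103 of 227 (45.4%), against 20.1%.

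The fragment 12S 507-531 led the RES library. It had 157 RPM in OVER, 1114 RPM in RES and 201 RPM in CON, so RES was 5.53-fold above CON and OVER 1.28-fold below it. It belongs to a segment near the middle of the 12S rRNA that the small-subunit rRNAs of bacteria and mitochondria have in common. The shifted fragment 12S 509-532 had 70.7 RPM in OVER, 391 RPM in RES and 122 RPM in CON. RES stood far above both other libraries at each of the 5 leading sequences that start at base 507 or 509 of the 12S stretch.

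The fragments 12S 215-242 and 12S 218-242 share their last base, which lies just before a conserved loop of the decoding region of the small subunit. The longer one had 28.2 RPM in OVER, 484 RPM in RES and 82.9 RPM in CON, with RES 5.84-fold above CON and OVER 2.94-fold below it. The shorter one had 19.5 RPM in OVER, 371 RPM in RES and 57.3 RPM in CON. Between OVER and RES these differed by 17.1-fold and 19.0-fold, the widest gaps among the 10 leading sequences.

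The CON library was led by 16S-1 1-29, taken as the first bases of the 16S rRNA. It had 78.1 RPM in OVER, 499 RPM in RES and 300 RPM in CON, so OVER was 3.85-fold below CON and RES 1.66-fold above it. The fragment 16S-4 163-190 differed least between RES and CON among the 10, with 119 RPM in OVER, 195 RPM in RES and 137 RPM in CON.

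The OVER library was led by other and shorter sequences. The 19-nt fragment 12S 777-795 had 276 RPM in OVER, 109 RPM in RES and 51.5 RPM in CON, a log2 ratio of 2.42 (2.29 to 2.56) for OVER over CON. The 20-nt fragment 16S-5 829-848 came second in OVER, with 178 RPM in OVER, 75.2 RPM in RES and 59.8 RPM in CON. These 2 fall outside the rule for named sequences and are given because they head the OVER library.

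**Figure D3:**
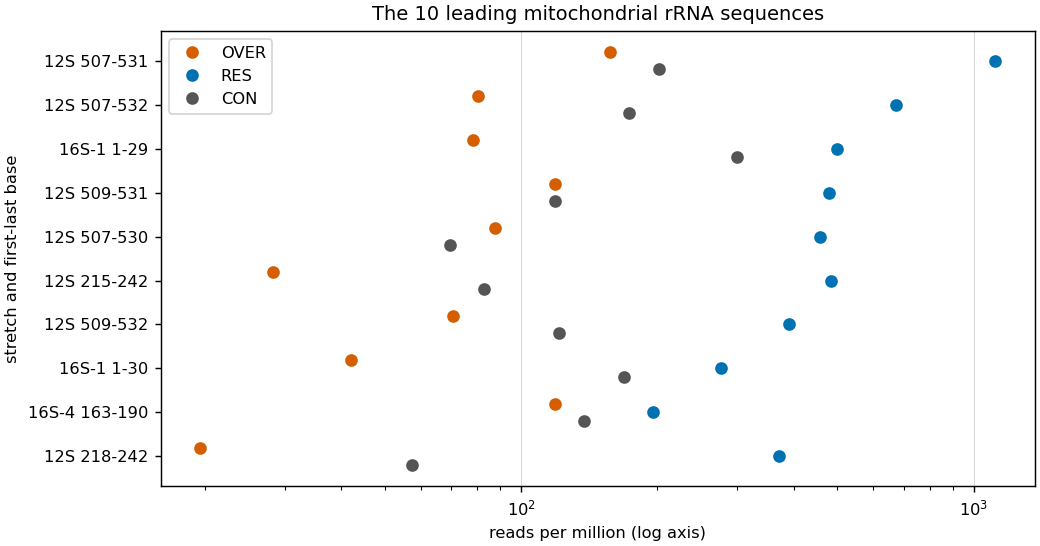
RPM (log axis) of the 10 mitochondrial rRNA sequences with the highest mean over the libraries, each named by stretch and first and last base, with a point each for OVER, RES and CON. RES lies to the right at each sequence, from 195 RPM for 16S-4 163-190 to 1114 RPM for 12S 507-531.

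The sequences furthest apart between libraries came in part from the leading places and in part from others. They are shown because many of them overlap a longer or shorter fragment of the same place. They were chosen as the extremes of the same ratios that are given below, and the intervals do not allow for that choice. Several met the read minimum mostly through a single library, such as 16S-5 416-430 with 163 reads in OVER and 9 in CON. Their ratios are therefore descriptions and probably overstate the gaps. Capitals mark the bases that the furthest-apart sequences of one place had in common.
12S 510-528: aaactcaaAGGACTTGGCG
12S 515-529: caaAGGACTTGGCGg
12S 518-533: AGGACTTGGCGgtgct
16S-5 416-430: AGACGAGAAGACCCT
16S-5 509-548: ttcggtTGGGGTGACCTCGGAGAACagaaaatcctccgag
16S-5 515-533: TGGGGTGACCTCGGAGAAC
16S-5 759-797: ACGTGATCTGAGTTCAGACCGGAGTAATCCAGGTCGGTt
16S-5 826-854: gaaAGGACAAGAGAAATAAGGCCAACTTT
16S-1 1-34: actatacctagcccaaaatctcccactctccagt
12S 909-940: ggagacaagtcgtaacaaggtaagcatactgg

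The 3 sequences most above CON in RES were short forms from inside the leading 12S place, 12S 510-528, 12S 515-529 and 12S 512-528. The first had 13.5 RPM in OVER, 46.0 RPM in RES and 1.80 RPM in CON, a log2 ratio of 4.68 for RES over CON (4.002 to 5.439). The second had 87.1 RPM in OVER, 112 RPM in RES and 7.51 RPM in CON. The 3 sequences most below CON in RES, 16S-5 826-854, 828-854 and 829-854, all ended at base 854 of that stretch. The first of these had 4.22 RPM in OVER, 3.72 RPM in RES and 29.8 RPM in CON, so RES was 8.02-fold and OVER 7.07-fold below CON. The shorter 16S-5 829-848 from the same place was higher than CON in OVER, as given above.

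The sequences most above CON in OVER were 15 or 16 nt long, and those most below it were 34 or 39 nt long. The fragment 16S-5 416-430 lies in the counterpart of the peptidyl transferase region of bacterial 23S rRNA, where peptide bonds are made. It had 19.7 RPM in OVER, 1.75 RPM in RES and 0.901 RPM in CON, the last from 9 reads, with a log2 ratio of 4.45 for OVER over CON (3.487 to 5.602). 12S 518-533 had 23.9 RPM in OVER, 6.84 RPM in RES and 1.30 RPM in CON. The long 16S-5 759-797 had 0.965 RPM in OVER, from 8 reads, 39.4 RPM in RES and 24.9 RPM in CON, and OVER was 25.8-fold below CON. 16S-1 1-34 carries the leading sequence of CON with 5 more bases at its 3′ end. It had 0.845 RPM in OVER, from 7 reads, 39.0 RPM in RES and 22.7 RPM in CON.

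One place held a long fragment far lower and a short one far higher in OVER than in RES. The 40-nt 16S-5 509-548 had 0.121 RPM in OVER, from 1 read, 24.8 RPM in RES and 3.71 RPM in CON. The 19-nt 16S-5 515-533 from its inside had 18.8 RPM in OVER, 2.05 RPM in RES and 4.11 RPM in CON. The 32-nt 12S 909-940, at the 3′ end of the 12S rRNA, had 0.483 RPM in OVER, from 4 reads, 44.5 RPM in RES and 14.9 RPM in CON.

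The 12S rRNA gave a larger part of the fragments in RES. Of the reads placed on a stretch, 38.0% lay on 12S in OVER (37.8 to 38.3), 48.8% in RES (48.7 to 48.9) and 31.7% in CON (31.5 to 31.9). Reads on 12S came to 6289 RPM in OVER, 21079 RPM in RES and 5877 RPM in CON, a log2 ratio of 0.10 for OVER over CON and of 1.84 for RES over CON. Reads on 16S came to 10253 RPM in OVER, 22119 RPM in RES and 12647 RPM in CON, with log2 ratios of -0.30 for OVER over CON and 0.81 for RES over CON. Per nt of assembled rRNA, 12S had 6.61 RPM in OVER, 22.1 RPM in RES and 6.17 RPM in CON, and 16S had 6.66 RPM in OVER, 14.4 RPM in RES and 8.21 RPM in CON. The 12S share was highest in RES in each of the 5 length classes, for example at 25 to 30 nt with 28.3% in OVER, 49.7% in RES and 32.1% in CON.

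Single sequences, which are drawn from the same reads, showed the same split. In RES against CON, 369 of 427 sequences on 12S (86.4%) and 347 of 744 on 16S (46.6%) were at least 2-fold higher. Of all sequences compared, 26.8% were. The median log2 ratios were 1.99 on 12S and 0.89 on 16S. In OVER against CON the medians were 0.29 on 12S and -0.40 on 16S.

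Reads piled up at sharp places along both rRNAs, and mostly at the same places in the 3 libraries. Of the 2492 assembled positions, 98.2% were covered in OVER, 99.7% in RES and 98.8% in CON. Cut into windows of 50 nt by the midpoint of each read, the stretches had 43 windows with at least 100 reads in each library. Across these windows log2 RPM correlated with Pearson's r of 0.947 between OVER and CON, 0.918 between RES and CON and 0.872 between OVER and RES. These are descriptions over neighbouring windows that share their libraries.

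The window 12S 501 to 550 held the most reads in each library. It had 3139 RPM in OVER, 9531 RPM in RES and 2261 RPM in CON, which was 19.0% of mitochondrial rRNA reads in OVER, 22.1% in RES and 12.2% in CON. Next by mean level came 16S-5 401 to 450, which holds 16S-5 416-430, with 1496 RPM in OVER, 5672 RPM in RES and 1821 RPM in CON. The window 12S 201 to 250 had 282 RPM in OVER, 2364 RPM in RES and 462 RPM in CON. In 16S-5, taken as the last of the 16S stretches, RES did not exceed CON in the window 801 to 850. That window had 1067 RPM in OVER, 1143 RPM in RES and 1447 RPM in CON.

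**Figure D4:**
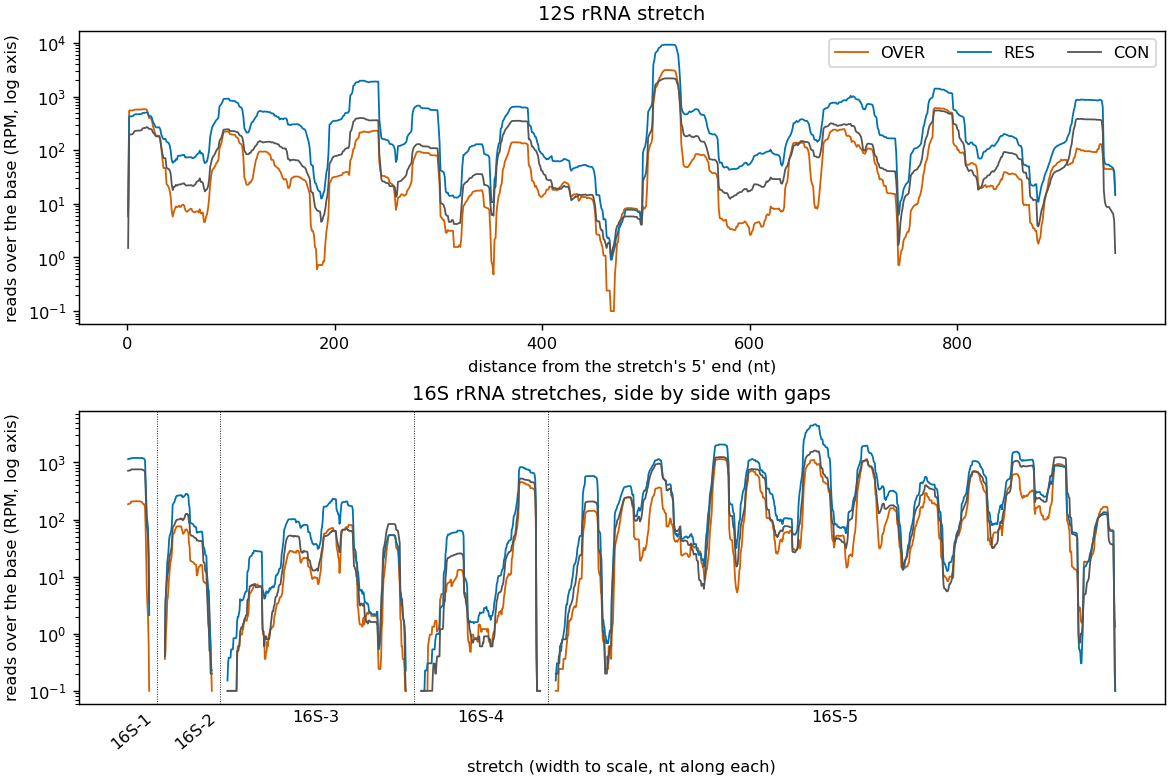
Reads over each base in RPM (log axis) along the 12S stretch (top, distance from its 5′ end in nt) and along the 5 stretches of 16S drawn side by side to scale (bottom), for OVER, RES and CON, with values under 0.1 RPM drawn at 0.1. The 3 curves peak at the same places, with the highest peak in the 12S window 501 to 550, where RES lies above OVER and CON. Reads named mt_DNA are not drawn.

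RES was at least 2-fold above CON in 24 of the 43 windows, 16 of 18 on 12S and 8 of 25 on 16S, and at least 2-fold below it in none. The median log2 ratio over windows was 1.76 on 12S and 0.74 on 16S. It was below 0 in 2 windows, the one just named and 16S-3 251 to 297, which was lowest at -0.64. OVER was at least 2-fold above CON in 1 window and below it in 4. The 1 window was 12S 1 to 50, with 636 RPM in OVER, 606 RPM in RES and 290.0 RPM in CON. The lowest log2 ratio, -1.85 for OVER over CON, was that of 16S-1, with 211 RPM in OVER, 1200 RPM in RES and 757 RPM in CON.

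Within each of the 43 windows the reads were shorter in OVER than in CON, with differences from -9.71 to -1.37 nt and a median of -5.28 nt. In RES they were shorter than in CON in 41 of the 43, with a median difference of -1.12 nt.

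**Figure D5:**
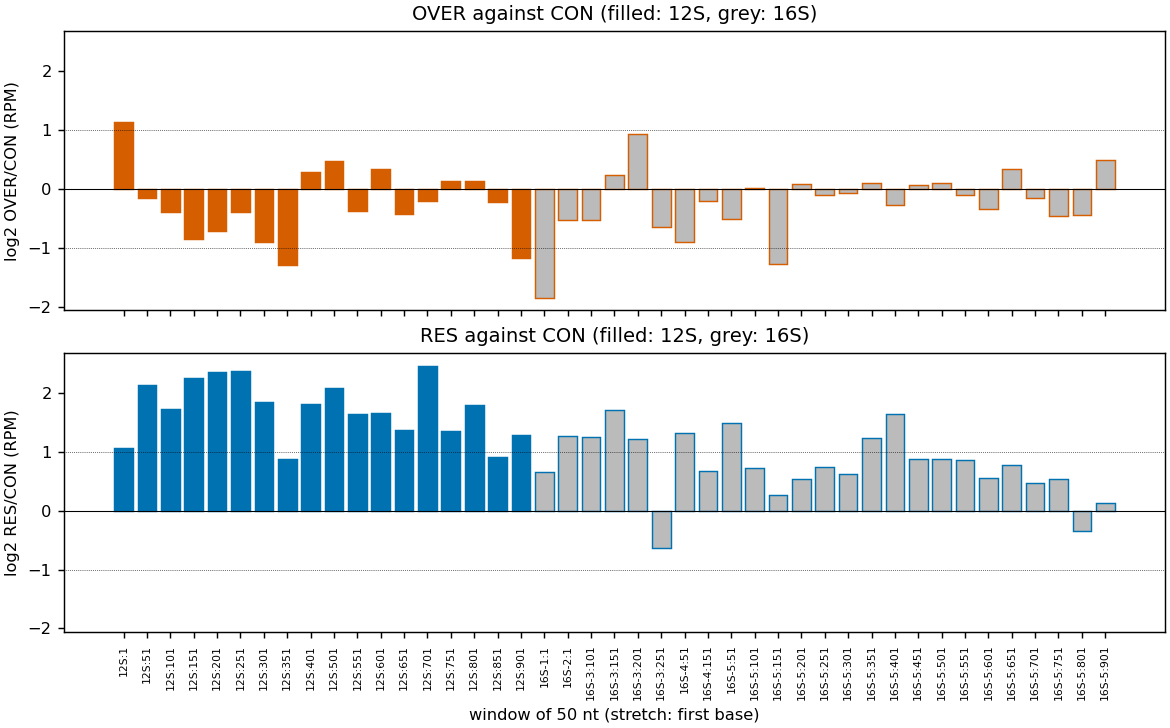
Log2 ratio of RPM for OVER over CON (top) and RES over CON (bottom) in the 43 windows of 50 nt with at least 100 reads in each library, in order along 12S (filled bars) and 16S (grey bars), with dotted lines at 2-fold. In RES all 18 windows of 12S lie above 0 and 16 of them above 2-fold, while OVER scatters on both sides of 0 with a median of -0.20.

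Few end points carried many of the reads. Among reads that match a stretch exactly, base 507 of 12S was the first base of 3.39% in OVER, 7.20% in RES and 3.78% in CON. Base 531 of 12S was the last base of 4.23% in OVER, 5.93% in RES and 2.74% in CON. The commonest 45 start positions in OVER, 51 in RES and 67 in CON held 50% of the reads. Starts at base 515, further inside the leading place, made up 1.48% of the exact reads in OVER, 1.25% in RES and 0.371% in CON. At base 515 of 12S began 231 RPM in OVER, 520 RPM in RES and 65.8 RPM in CON, while at base 507 began 532 RPM in OVER, 2995 RPM in RES and 670.4 RPM in CON.

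Among reads placed on the stretches, most starts at the 5′ ends of 16S-1 and 12S fell on a single base. The stretches were trimmed at weakly covered ends and a read had to lie within one, so starts further upstream could not be counted. The shares below are therefore in part set by how the stretches were made. Of the reads that cover base 5 of 16S-1, those that start at base 1 made up 95.5% in OVER, 97.7% in RES and 97.5% in CON. Of the reads that cover base 6 of 12S, those that start at base 2 made up 97.9% in OVER, 96.2% in RES and 94.6% in CON. In the precursor a tRNA lies directly before each rRNA, and reads that the annotation gives to a tRNA are not counted here.

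Near the 3′ end of 12S many reads stopped at the same base, just before a pair of adenines that the methyltransferase TFB1M is known to dimethylate in human 12S rRNA. The fragment 12S 909-940 ends there. Of the reads that cover base 938, those that end at base 940 were the commonest in RES (65.2%) and CON (57.1%), whereas in OVER the commonest end was base 939 (35.8%). Reads that run on to cover base 944 made up 318 of 1000 in OVER (31.8%), 636 of 10978 in RES (5.79%) and 78 of 3519 in CON (2.22%). These are shares, not levels. With mismatched reads included, base 944 was covered at 44.5 RPM in OVER and 53.8 RPM in RES. Whether the shorter reads of OVER bear on its share was not tested.

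The fragments began and ended with certain bases more often than the rRNAs hold them. The first base was A in 46.6% of reads in OVER, 43.3% in RES and 46.4% in CON, and A makes up 36.96% of the assembled stretches. The last base was G in 34.2% of reads in OVER, 38.3% in RES and 32.5% in CON, and G makes up 17.6% of the stretches. The leading places weigh on these shares, since all their reads are counted.

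Most reads matched a stretch exactly, 94.8% in OVER, 96.3% in RES and 95.8% in CON. Reads with 1 mismatch made up 5.23% in OVER, 3.70% in RES and 4.22% in CON. The mismatch was at the last base in 61.4% of these in OVER, 54.3% in RES and 52.6% in CON, and mostly an A or a C. Inside the reads, the change A318T in 16S-5 was present at a like share in each library, 4.93% in OVER, 4.24% in RES and 3.87% in CON. The same base also carried A318G, at 1.73% in OVER, 1.73% in RES and 1.22% in CON. Here the first letter is the base of the stretch and the last that of the read.

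Some changes differed between the libraries beyond counting error. The change C900T in 16S-5 was carried by 222 of 586 reads that cover the site in OVER (37.9%, 33.94 to 41.95), by 14 of 1147 in RES (1.22%, 0.669 to 2.04) and by 0 of 893 in CON. For CON the exact upper limit was 0.412%, and 3 reads of 893 would be 0.336%. In OVER the 222 reads were of 42 distinct sequences with 15 start positions. The change C193A in 16S-5 was carried by 51 of 689 reads in OVER (7.40%, 5.56 to 9.62), by 35 of 3903 in RES (0.897%, 0.625 to 1.24) and by 32 of 2551 in CON (1.25%, 0.860 to 1.77), and in OVER its reads were of 5 sequences with 1 start position. The site of C900T is the capital in this stretch of the assembled sequence.
16S-5 886-914: atcttaattaatttCacaacaaaacctgc

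The reads were spread over many sequences. The leading sequence held 1.67% of mitochondrial rRNA reads in OVER, 2.58% in RES and 1.62% in CON, and the 10 leading ones 8.20% in OVER, 11.7% in RES and 8.20% in CON. A number of 307 sequences in OVER, 317 in RES and 410 in CON held 50% of the reads. Of the 100 leading sequences of a library, OVER and CON shared 49, RES and CON 56, and OVER and RES 53. In all 3 libraries were found 6913 sequences, 18.6% of the 37183, and they held 91.7% of the reads in OVER, 87.2% in RES and 86.9% in CON. A further 22186 sequences occurred in 1 library only. Thinned to 100000 reads each, the libraries would hold 11399.6 distinct sequences in OVER, 13051 in RES and 13289 in CON.

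Reads named as antisense to mitochondrial rRNA were few, 270 in OVER, 259 in RES and 303 in CON, or 0.197% of the reads of both strands in OVER, 0.0455% in RES and 0.164% in CON. A further term stood beside Mt_rRNA for 1.60% of the reads in OVER, 0.465% in RES and 0.144% in CON.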

How the data were processed

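Small RNA of F1 ram sperm was measured in 3 groups (OVER, RES, CON). Per the labels' protocols, somatic cells were lysed, RNA was taken up in TRIzol, and size-selected libraries were made with the NEBNext small RNA kit and read on an Illumina NovaSeq. The 9 deposited tables have a row for each distinct sequence with, per the file headers, its length, count of reads, genome match flag and annotation. The counts are whole numbers that the authors deposited without normalization. A tool named in the submitters' processing notes is edgeR. Which aligner, annotation source and genome build were used is not given in the sources used here.

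Within a group the 3 tables agreed in every sequence, read count and genome flag, and the annotation terms differed in 0 to 3 sequences, none of them in Mt_rRNA. Each group was therefore counted as 1 library, of 8287937 reads in OVER, 13160116 in RES and 9983895 in CON, and the planned edgeR test was not run. The files do not say whether a group is 1 animal or a pool.

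Counts were scaled to reads per 1000000 reads (RPM). Intervals are exact (Clopper-Pearson) at 95%, for ratios from the 2 counts, and cover counting error only, since reads without molecular identifiers are not independent molecules. In ratios, 3 reads stood in for a count of 0. Stretches were assembled from overlaps of the mitochondrial rRNA sequences and of genome-matching reads named mt_DNA. The mitochondrial rRNA sequences were then placed on them with at most 1 mismatch, which placed all but 22 reads in OVER, 59 in RES and 28 in CON. The stretches were named by length against a RefSeq table of ARS-UI_Ramb_v3.0, of which no coordinates are printed. Sequences named were the 10 with the highest mean RPM, and for each pair of groups the 3 highest and 3 lowest log2 ratios among those with at least 100 reads and a mean of at least 10 RPM in the 2 libraries. The members, the rule and the lists were chosen with earlier results of these data known, and the windows of 50 nt were chosen after seeing the data. The ratios and counts were tested on simulated counts. Alternatives were other library sizes, TMM factors (edgeR 4.0.16, R 4.3.3), length classes, genome-matching or singly annotated sequences, and other read minimums. Python 3.11.15 with pandas 2.3.3 and scipy 1.17.1 was used.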

Additional observations from a re-analysis of the deposited data

Results flagged for a closer look

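Reads outside the mitochondrial rRNA annotation also lay on the assembled stretches. They are sequences of at least 20 nt that match a stretch exactly but that the annotation names otherwise, all of them mt_DNA, and they stood above the level of CON in RES. Reads named mt_DNA also went into the joining of the stretches, so that some match was given in advance. They came to 33.9 RPM in OVER, 835 RPM in RES and 193 RPM in CON, a log2 ratio of 2.11 for RES over CON and of -2.51 for OVER over CON. Nearly all lay on the 12S stretch, 90.7% in OVER, 98.2% in RES and 94.7% in CON. The leading one, 12S 495-528, starts upstream of the leading place and had 6.39 RPM in OVER, 186 RPM in RES and 26.8 RPM in CON.
12S 495-528: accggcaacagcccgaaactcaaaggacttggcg
Per 100 mitochondrial rRNA reads there were 0.205 such reads in OVER, 1.93 in RES and 1.04 in CON.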

How the results depend on the processing

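None of the log2 ratios changed sign in the settings listed here. The 2 settings by length count mitochondrial rRNA per library read of those lengths, not in RPM. In RPM, OVER was 3.87-fold above CON at 15 to 20 nt and 1.92-fold below it at 25 to 30 nt, as given above. The log2 ratio of mitochondrial rRNA for OVER over CON was -0.29 per annotated read, -0.24 with TMM factors, -0.24 over genome-matching reads, -0.18 with Mt_rRNA as the sole term, -0.083 at 25 to 40 nt, -0.46 at 15 to 24 nt, -0.11 at CON lengths and -0.18 with the reads under other names. In the same order but without the sole term, that of RES over CON was 0.99, 1.24, 1.08, 1.16, 1.18, 1.17 and 1.23. With the sole term in its place, that of OVER over RES was -1.28, -1.48, -1.31, -1.40, -1.24, -1.64, -1.28 and -1.41. The share of 15 to 20 nt was 39.5% in OVER and 17.1% in RES with the sole term, and over distinct sequences 36.6% in OVER, 20.7% in RES and 15.0% in CON. At 25 to 40 nt the 10 leading sequences held 15.3% in OVER, 17.4% in RES and 11.2% in CON.

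Counts of sequences at least 2-fold apart moved with the read minimum. With at least 20 reads, 652 of 2463 were higher and 970 lower in OVER than in CON. In the same setting 2637 of 4471 were higher and 177 lower in RES than in CON, and 256 of 4210 higher and 2733 lower in OVER than in RES. With no minimum these counts were 8628 and 6547 of 23381, 10167 and 11016 of 33761, and 14964 and 5158 of 32221. The balance thus turned in each pair, but the counts with no minimum cannot show which library held more. A library that lacked a sequence was set at 3 reads, which is more than a single read in the other library. Such a sequence could therefore count as higher in the library that lacked it. Scaled to the mitochondrial rRNA total, 278 of 1171 were higher and 218 lower in RES than in CON, and 246 of 1104 higher and 408 lower in OVER than in RES. At 25 to 40 nt, 1 of 282 was higher and 168 lower in OVER than in CON. At these lengths 351 of 720 were higher and 24 lower in RES than in CON. Between OVER and RES, 2 of 584 were higher and 481 lower in OVER.

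The 12S share without the leading window was 23.5% in OVER, 34.3% in RES and 22.2% in CON. At 25 to 40 nt it was 28.2% in OVER, 44.1% in RES and 28.6% in CON, so OVER lay below CON there. With the reads under other names it was 49.7% in RES and 32.4% in CON. These alternatives on the 12S share, and the added reads under other names, were chosen after seeing the data. The cause of each shift was not tested, apart from the reads or lengths each setting leaves out. No paired analysis was possible because the 3 tables of a group are identical, and for the same reason no replicate could be left out. With 1 library a group, no spread between animals can be set beside any value.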
